A study of Homo sapiens with 4 samples.

Results

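The genes described here are 38 members of the response to low oxygen and of sugar metabolism, out of 60649 gene rows measured. They are targets and regulators of the hypoxia-inducible factors (HIF), glycolytic enzymes with their transporters and regulators, and the gluconeogenic enzymes FBP1 and PCK2. They are a list of named genes, matched by Ensembl identifier, with no threshold on a measured value, but the list was drawn up with earlier results of these data known. By role, 4 sense oxygen or form the HIF factor, 5 encode secreted or surface HIF targets, 6 encode intracellular HIF targets, 3 carry glucose or lactate, 15 are glycolytic enzymes, 3 regulate glycolytic flux and 2 are gluconeogenic. The question set for them was whether the glycolytic enzymes differed from the other HIF targets.

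RNA was sequenced from FaDu cells, an established line from a squamous carcinoma of the hypopharynx. The TINCR-HA-FLAG cells overexpressed the gene TINCR with HA and FLAG tags. The cells they were set against, of the same line, carried an empty vector. Each group had 2 libraries, which the submitters describe as technical. The p-values therefore cover the scatter of these libraries alone. All cells were grown in MEM alpha Glutamax with 10% fetal bovine serum, and no oxygen level or drug is given in the labels. The promoter that drives the transgene, and whether the cells were 1 clone or a pool, is not stated in the labels.

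The TINCR-HA-FLAG libraries held 18151424 and 22331602 counts in genes, against 17069533 and 17315648 in the empty vector libraries. TINCR had 1921 and 2943 counts in TINCR-HA-FLAG cells, against 68 and 64 in empty vector cells (log2 fold change 4.93, edgeR adjusted p = 7.18e-07). All 7 markers of squamous epithelium were present, at mean levels of 59.6 to 4016 CPM (counts scaled to a common library size), and summed to 4870 and 5370 CPM in TINCR-HA-FLAG cells, against 5730 and 6460 CPM in empty vector cells. KRT5 made up most of that sum. Of this list KRT14 was itself called lower (log2 fold change -1.08, edgeR adjusted p = 0.014), and only CDH1 had a positive value (0.23, adjusted p = 0.603). None of 4 leukocyte markers reached a mean of 1 CPM. Of 5 fibroblast markers 3 did, with sums of 44.9 and 45.3 CPM in TINCR-HA-FLAG cells and 39.3 and 35.2 CPM in empty vector cells. Of 4 endothelial markers VWF did, and that list summed to 13.8 and 12.6 CPM in TINCR-HA-FLAG cells, against 9.87 and 10.7 CPM in empty vector cells. The part of these markers in the values below was not tested.

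In oxygen-replete cells prolyl hydroxylases mark HIF alpha subunits for destruction. When oxygen is short the subunits persist, pair with ARNT and bind a short DNA core near their target genes, which include angiogenic factors, glucose transporters and most glycolytic enzymes. Squamous carcinomas of the head and neck often hold hypoxic regions, and FBP1 works against glycolysis by reversing its phosphofructokinase step.

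Of the 38 genes, 36 had enough counts to be tested, and 2 passed the edgeR quasi-likelihood test at a Benjamini-Hochberg adjusted p of 0.05 over 18771 genes, beside 0.538% of all genes tested. FBP1 rose in TINCR-HA-FLAG cells, where 0.442% of all genes were called higher, and VEGFA, the angiogenic growth factor, fell, where 0.0959% were called lower. At an unadjusted p under 0.05, 3 of the 36 were higher and 7 lower, beside 5.88% and 4.31% of all genes. Between groups 22 of the 36 did not overlap, 7 higher and 15 lower, beside 39.6% of all genes. No glycolytic enzyme passed the test. Their fold changes were small and mostly of one sign: 14 of 15 were negative, or 13 when scaled by library totals, with a median of -0.21 on the log2 scale. With TINCR-HA-FLAG library 1 left out, 10 of 15 were negative and the median was -0.078. With TINCR-HA-FLAG library 2 left out all 15 were negative (median -0.33), and with empty vector library 2 left out 12 were (median -0.13). The other HIF targets were split, with 6 positive and 5 negative among the 11 tested and a median of 0.16. In bulk RNA a smaller number of expressing cells cannot be told apart from less RNA per cell.

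The upstream sequences of FBP1, which rose, of ADM, the vasodilator peptide gene with the largest positive value among the other HIF targets, and of the glycolytic genes LDHA and PKM are shown because HIF acts through a short core there. Each is the 250 bases before a RefSeq transcription start on GRCh38.p14, 5′ to 3′ on the strand of the gene. Capitals mark the core ACGTG or GCGTG on either strand, which reads CACGT or CACGC when the core lies on the opposite strand. FBP1 lies on the minus strand (chr9:94639519-94639768) and its window holds 1 match. ADM lies on the plus strand (chr11:10304823-10305072) and also has 1 match. For LDHA, on the plus strand, the first window is chr11:18394313-18394562 and holds 5 matches, since each of its 2 CACGTG runs, the palindromic E-box, counts on both strands. The PKM window, on the minus strand (chr15:72231191-72231440), holds no match.
FBP1: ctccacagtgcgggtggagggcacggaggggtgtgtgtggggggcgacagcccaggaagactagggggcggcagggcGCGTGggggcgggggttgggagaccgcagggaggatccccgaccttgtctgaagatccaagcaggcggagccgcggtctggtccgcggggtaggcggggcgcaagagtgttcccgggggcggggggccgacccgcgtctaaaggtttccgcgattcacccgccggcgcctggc
ADM: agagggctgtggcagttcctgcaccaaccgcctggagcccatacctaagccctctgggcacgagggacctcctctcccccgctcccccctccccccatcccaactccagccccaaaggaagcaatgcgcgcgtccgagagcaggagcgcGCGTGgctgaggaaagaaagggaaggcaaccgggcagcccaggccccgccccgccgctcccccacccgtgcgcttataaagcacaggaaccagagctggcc
LDHA: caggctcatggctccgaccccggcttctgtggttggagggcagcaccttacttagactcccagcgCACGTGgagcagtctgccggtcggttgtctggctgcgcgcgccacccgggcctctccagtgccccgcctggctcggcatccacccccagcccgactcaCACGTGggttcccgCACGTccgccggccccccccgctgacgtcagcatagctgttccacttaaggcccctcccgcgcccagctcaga
PKM: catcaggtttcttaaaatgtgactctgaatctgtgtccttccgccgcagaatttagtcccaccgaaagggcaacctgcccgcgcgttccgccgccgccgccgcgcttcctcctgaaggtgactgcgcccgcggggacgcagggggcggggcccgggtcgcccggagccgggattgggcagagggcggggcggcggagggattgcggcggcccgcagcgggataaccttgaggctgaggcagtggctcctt

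RefSeq promoter windows were found for 34 of the 38 genes, and VEGFA, BNIP3L, NDRG1 and SLC2A3 had none. The core was counted in upstream windows of the same length as those shown above, without bases after the start. Of the 55 windows of these genes 65.5% held it, beside 43.2% of 35116 windows of all genes. Among the glycolytic enzymes 18 of 29 windows held it (62.1%), and among the other HIF targets 8 of 10 (80.0%). Several enzymes have more windows than others, and counted by gene the order was reversed. By gene, 13 of 15 enzymes held the core in any window (86.7%) and 8 of 10 other HIF targets (80.0%), beside 47.4% of all genes. The E-box CACGTG, which contains the core, was in 14.5% of the windows of these genes and in 6.34% of all windows. A match is a run of letters and not a measured binding site.

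**Figure D1:**
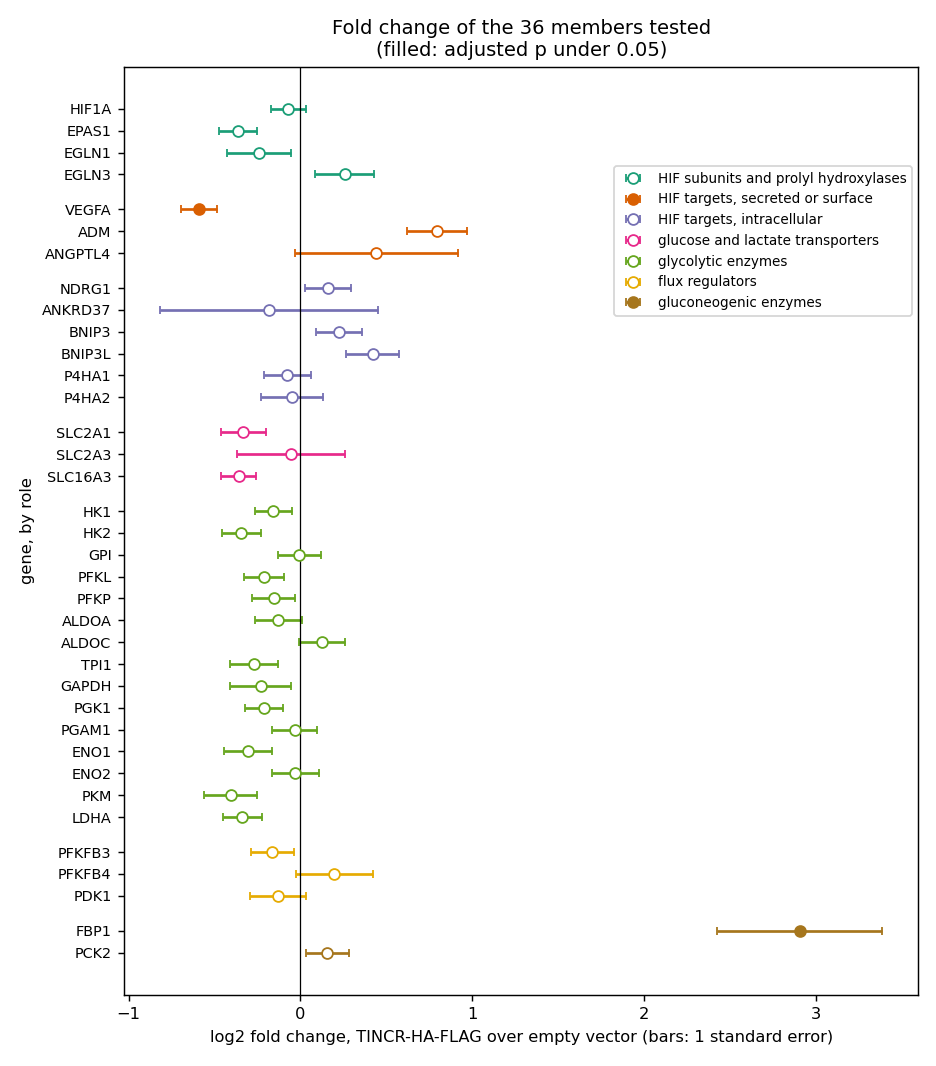
Log2 fold change of each of the 36 tested genes, TINCR-HA-FLAG over empty vector, on the x axis, with genes grouped by role down the y axis. Points are edgeR estimates from 2 libraries a group, bars are 1 standard error and filled points passed the test. FBP1 stands at 2.90 and VEGFA at -0.59, while 14 of 15 glycolytic enzymes lie left of 0 (13 when scaled by library totals).

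Of the oxygen-sensing genes, none passed the test. HIF1A, the alpha subunit regulated mostly through protein stability, had 182 and 176 CPM in TINCR-HA-FLAG cells, against 186 and 189.99 CPM in empty vector cells. Its log2 fold change was -0.07 ± 0.10 (SE, edgeR adjusted p = 0.887), and the groups did not overlap although the gap was small. EPAS1, which encodes the HIF-2 alpha subunit, had 141 and 154 CPM in TINCR-HA-FLAG cells, against 179 and 200.4 CPM in empty vector cells. Both TINCR-HA-FLAG libraries were below both empty vector libraries, with a log2 fold change of -0.36 ± 0.11 (adjusted p = 0.257). Per kilobase of exon, HIF1A made up 63.2% ± 1.94 of the summed alpha subunit level in TINCR-HA-FLAG cells and 58.4% ± 1.56 in empty vector cells (SD, n = 2 each). EGLN1 and EGLN3, prolyl hydroxylases that are themselves HIF targets, had log2 fold changes of -0.24 ± 0.19 and 0.26 ± 0.17 (adjusted p = 0.747 and 0.688).

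Among the secreted and surface targets, VEGFA passed the test. VEGFA (ENSG00000112715.25, GRCh38 chr6:43770184-43786487, plus strand) had 44.1 and 43.4 CPM in TINCR-HA-FLAG cells, against 68.8 and 62.9 CPM in empty vector cells. These rest on 812 and 963 counts against 1178 and 1066 counts. The groups stood well apart, and VEGFA fell by 0.59 ± 0.11 on the log2 scale, a ratio of 0.665 (edgeR adjusted p = 0.0471). The call was lost when empty vector library 1 was left out (adjusted p = 0.0934) and when genes of low count were kept in the test (adjusted p = 0.131), at nearly the same fold change. DESeq2 gave an adjusted p of 0.00544.

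ADM, which encodes adrenomedullin, had 13.0 and 14.4 CPM in TINCR-HA-FLAG cells, against 8.23 and 7.55 CPM in empty vector cells. Its groups did not overlap, and its log2 fold change of 0.80 ± 0.17 had the opposite sign to that of VEGFA but did not pass the test (edgeR adjusted p = 0.0957). Without TINCR-HA-FLAG library 1 it did (adjusted p = 0.029). ANGPTL4, an inhibitor of lipoprotein lipase, was near 1 CPM, with 1.19 and 1.13 CPM in TINCR-HA-FLAG cells and 0.701 and 1.003 CPM in empty vector cells (adjusted p = 0.836). CA9 and CA12, carbonic anhydrases of the cell surface and common markers of hypoxia, had too few counts to test. CA9 had 5 and 5 counts in TINCR-HA-FLAG cells, against 3 and 0 counts in empty vector cells. CA12 had 8 and 2 counts in TINCR-HA-FLAG cells, against 6 and 2 counts in empty vector cells. A count of 3 is worth 0.134 to 0.176 CPM in these libraries, so both genes were close to the limit of detection.

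**Figure D2:**
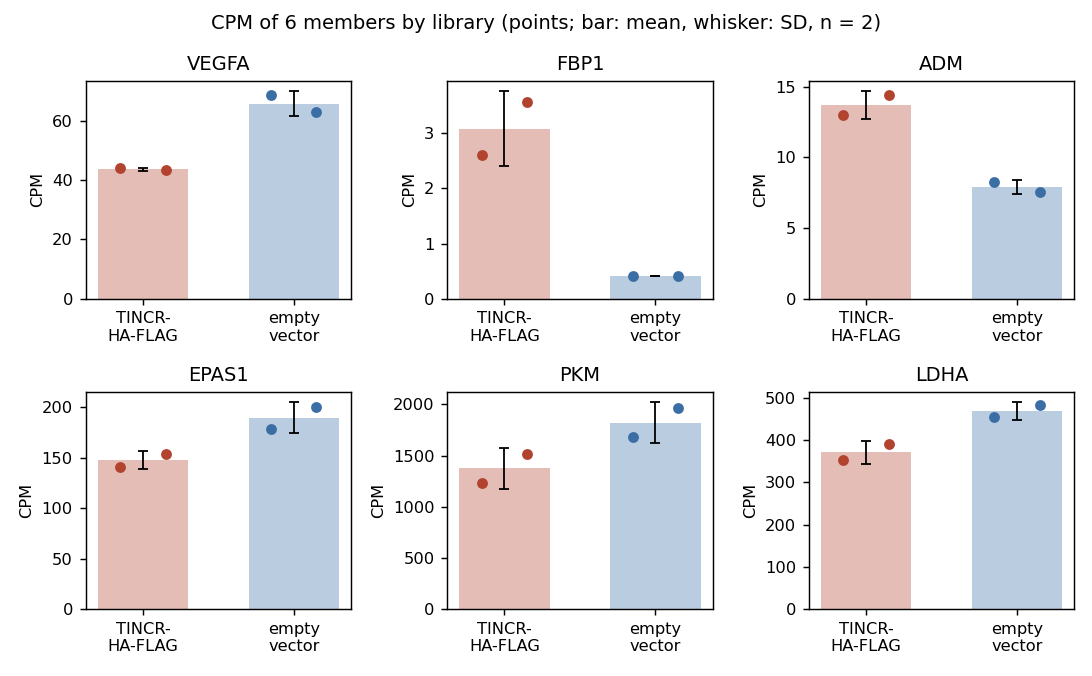
Level in CPM (y axes, linear from 0) of VEGFA, FBP1, ADM, EPAS1, PKM and LDHA in each library, with TINCR-HA-FLAG left of empty vector. Points are libraries, bars are group means and whiskers are SD (n = 2). In each panel both TINCR-HA-FLAG points lie on one side of both empty vector points, above them for FBP1 and ADM and below them for the other genes.

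None of the 6 intracellular HIF targets passed the test. BNIP3L, a mitophagy receptor, had 46.0 and 51.2 CPM in TINCR-HA-FLAG cells, against 30.4 and 42.4 CPM in empty vector cells. The groups did not overlap, but the empty vector libraries were far apart, and the log2 fold change was 0.42 ± 0.15 (edgeR adjusted p = 0.367). Without empty vector library 2 it passed the test (adjusted p = 0.0316). NDRG1, a stress-induced gene and the most abundant of this group in CPM, had 88.7 and 69.8 CPM in TINCR-HA-FLAG cells, against 66.4 and 75.3 CPM in empty vector cells. Those groups overlapped, with a log2 fold change of 0.16 ± 0.13 (adjusted p = 0.767). The mitophagy receptor BNIP3 stood at 0.22, the collagen prolyl hydroxylases P4HA1 and P4HA2 at -0.08 and -0.05, and ANKRD37 at -0.18 with 1.98 and 0.354 CPM in its own empty vector libraries. BNIP3 has 44 named pseudogenes, which held 11.8% of the summed counts of gene and copies, so its level is uncertain. ANKRD37 shares 35.2% of its exon bases with UFSP2 on the opposite strand.

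All 3 transporters had negative fold changes and none passed the test. SLC2A1, the glucose transporter GLUT1, had 324 and 386 CPM in TINCR-HA-FLAG cells, against 415 and 478 CPM in empty vector cells (log2 fold change -0.33 ± 0.13, edgeR adjusted p = 0.408). SLC16A3, the lactate exporter MCT4, had 59.6 and 59.9 CPM in TINCR-HA-FLAG cells, against 76.4 and 76.9 CPM in empty vector cells (log2 fold change -0.36 ± 0.10, adjusted p = 0.204). Replicates of SLC16A3 nearly coincided, and in both genes the groups did not overlap. SLC16A3 shares 5.36% of its exon bases with CSNK1D on the opposite strand, whose log2 fold change was -0.12. SLC2A3, the glucose transporter GLUT3, was at 2.39 and 2.57 CPM in TINCR-HA-FLAG cells and 2.74 and 2.42 CPM in empty vector cells, and 29.7% of the summed counts of gene and copies were in 3 pseudogenes. Per kilobase, SLC2A1 made up 99.3% of the summed level of SLC2A1, SLC2A2, SLC2A3 and SLC2A4 in TINCR-HA-FLAG cells and 99.4% in empty vector cells. Other glucose transporters were not in that sum. Of the summed level of SLC16A1 and SLC16A3 alone, SLC16A3 was the minor part. It held 12.9% ± 0.676 in TINCR-HA-FLAG cells and 14.2% ± 0.491 in empty vector cells (SD, n = 2 each).

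The 15 glycolytic enzymes had log2 fold changes between -0.41 and 0.13, with standard errors of 0.109 to 0.176 and edgeR adjusted p-values of 0.31 to 0.994. In 9 of them both TINCR-HA-FLAG libraries were below both empty vector libraries and in none above, beside 17.9% of all genes tested that were below in this way. Of all genes tested 49.3% had a negative fold change, and of the 2218 with a mean of at least 100 CPM 62.3% did. At an unadjusted p under 0.05, 3 of the 15 were lower and none higher, beside 4.31% of all genes that were lower. Of the 2218 abundant genes, 569 were below without overlap and 176 were lower at that unadjusted p.

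These 3 enzymes sit at the entry and the exit of the pathway. PKM, which encodes the pyruvate kinase of most tissues, had 1235 and 1517 CPM in TINCR-HA-FLAG cells, against 1683 and 1965 CPM in empty vector cells (log2 fold change -0.41 ± 0.15, edgeR adjusted p = 0.392). LDHA, the lactate dehydrogenase subunit that favours lactate, had 352 and 390 CPM in TINCR-HA-FLAG cells, against 454 and 483 CPM in empty vector cells (-0.34 ± 0.11, adjusted p = 0.326). HK2, an inducible hexokinase, had 30.2 and 30.4 CPM in TINCR-HA-FLAG cells, against 39.7 and 37.2 CPM in empty vector cells (-0.34 ± 0.11, adjusted p = 0.31). In each of them the groups did not overlap, and the gap was widest relative to the replicate spread in HK2. GAPDH, the most abundant of the enzymes, had 2867 and 3662 CPM in TINCR-HA-FLAG cells, against 3509.8 and 4156 CPM in empty vector cells. Those groups overlapped, since TINCR-HA-FLAG library 2 was above empty vector library 1 (log2 fold change -0.23 ± 0.18, adjusted p = 0.738). GAPDH has 65 named pseudogenes, which held 4.25% of the summed counts.

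Among the other enzymes, ENO1, TPI1, PGK1 and PFKL stood at -0.30, -0.27, -0.21 and -0.21. HK1, PFKP and ALDOA were at -0.16, -0.15 and -0.13, and PGAM1, ENO2 and GPI at -0.03, -0.03 and -0.01. ALDOC, an aldolase best known from brain, was the 1 positive value, at 0.13. ALDOA shares 42.3% of its exon bases with a second annotated gene on the same strand, so its level is uncertain. Per kilobase of exon, GAPDH was the highest of the 15, at 1095 ± 189 CPM per kilobase in TINCR-HA-FLAG cells and 1286 ± 153 in empty vector cells (SD, n = 2 each). TPI1, ENO1 and PKM followed, at 225, 166 and 161 CPM per kilobase in TINCR-HA-FLAG cells and 272, 205 and 213 in empty vector cells. ENO1 was above PKM in each TINCR-HA-FLAG library and below it in each empty vector library, by a small margin each time. This order depends on the length used. The union of exons is 5276 bases for ENO1 and 8571 for PKM, and the longest transcripts are 2548 and 3016. With the longest transcript as length, PKM stood above both ENO1 and TPI1 in every library.

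**Figure D3:**
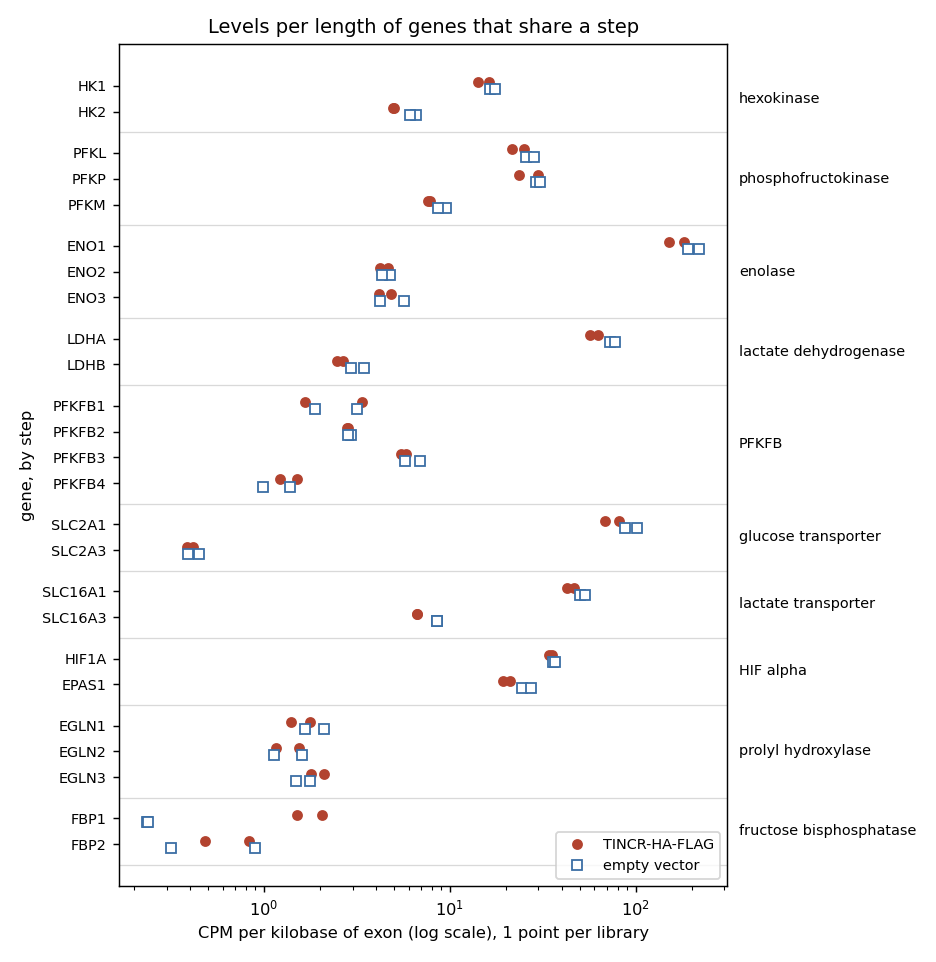
Level per kilobase of exon (CPM per kilobase, log axis) of the isozymes at 10 steps, with TINCR-HA-FLAG beside empty vector. Points are libraries. ENO1, LDHA and SLC2A1 lead the genes drawn for their steps in every library. FBP1 lies above FBP2 in TINCR-HA-FLAG libraries and below it in empty vector libraries. In empty vector library 2 both had 7 counts, so there the order comes from length alone.

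Most steps had the same leading isozyme in every library. HK1 made up 74.6% ± 1.51 of the hexokinase level per kilobase in TINCR-HA-FLAG cells and 72.2% ± 1.83 in empty vector cells, and HK2 24.6% ± 1.68 and 27.0% ± 1.67 (SD, n = 2 each). Phosphofructokinase was shared between PFKP at 46.3% and PFKL at 40.3% in TINCR-HA-FLAG cells, against 45.3% and 40.9% in empty vector cells. Enolase was 94.9% ENO1 in TINCR-HA-FLAG cells and 95.5% in empty vector cells, and lactate dehydrogenase was 95.9% LDHA in both. At the last 3 of these steps the libraries of the groups overlapped, and for HK1 they met at 73.5%.

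The flux regulators overlapped between groups in all 3 cases. PFKFB3, which makes the activator of phosphofructokinase, had 33.5 and 35.5 CPM in TINCR-HA-FLAG cells, against 35.2 and 42.1 CPM in empty vector cells (log2 fold change -0.16 ± 0.13, edgeR adjusted p = 0.74). PFKFB4, of the same family, had 9.23 and 7.48 CPM in TINCR-HA-FLAG cells, against 8.41 and 6.08 CPM in empty vector cells (log2 fold change 0.20 ± 0.23, adjusted p = 0.85). PDK1, a kinase that holds back pyruvate dehydrogenase, had 20.0 and 15.2 CPM in TINCR-HA-FLAG cells, against 18.0 and 20.4 CPM in empty vector cells (-0.13 ± 0.16, adjusted p = 0.867).

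FBP1 had the largest fold change of the 36 genes. FBP1 (ENSG00000165140.12, GRCh38 chr9:94603133-94640249, minus strand), fructose bisphosphatase, had 48 and 79 counts in TINCR-HA-FLAG cells, against 7 and 7 counts in empty vector cells. That is 2.61 and 3.56 CPM against 0.409 and 0.413 CPM, with no overlap. FBP1 rose by 2.90 ± 0.48 on the log2 scale, 7.48-fold (edgeR adjusted p = 0.0307). With each library left out in turn the log2 fold change was 2.64 to 3.10 and the gene passed the test each time. It entered the test only through its TINCR-HA-FLAG libraries, since both empty vector libraries were under the low-count limit, and DESeq2 gave it no adjusted p. Its level stayed low: per kilobase it averaged 1.77 CPM in TINCR-HA-FLAG cells and 0.236 CPM in empty vector cells, against 161 and 213 for PKM.

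FBP1 shares 283 exon bases, 16.3% of its exons, with the long non-coding gene PCAT7 on the opposite strand. PCAT7 had 9.88 and 9.74 CPM in TINCR-HA-FLAG cells, against 7.88 and 6.43 CPM in empty vector cells (log2 fold change 0.45 ± 0.19, edgeR adjusted p = 0.459). The strand setting of the counting is not given, and its part in the FBP1 counts was not tested. The muscle isozyme FBP2 had 20 and 14 counts in TINCR-HA-FLAG cells, against 20 and 7 counts in empty vector cells. FBP1 made up 72.6% ± 11.7 of the fructose bisphosphatase level per kilobase in TINCR-HA-FLAG cells and 31.8% ± 15.6 in empty vector cells (SD, n = 2 each). These shares rest on few counts, and in empty vector library 2 FBP1 and FBP2 both had 7. PCK2, the mitochondrial carboxykinase of gluconeogenesis, had 25.5 and 28.3 CPM in TINCR-HA-FLAG cells, against 24.4 and 23.9 CPM in empty vector cells (log2 fold change 0.16 ± 0.13, adjusted p = 0.759).

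The median log2 fold change of the 15 glycolytic enzymes minus that of the 11 other HIF targets was -0.37. The other HIF targets ranged from -0.59 for VEGFA to 0.80 for ADM, a wider span than that of the enzymes. Of them 5 were higher and 2 lower with no overlap between groups, beside 21.7% and 17.9% of all genes. The difference kept its sign when any 1 library was left out, but was -0.13 without TINCR-HA-FLAG library 1 and -0.61 without TINCR-HA-FLAG library 2. It was -0.16 when transporters and flux regulators were counted with the other HIF targets. In the wider lists described below, 23 further HIF targets had a median of -0.0018 and 13 further glycolytic genes one of -0.073. Those medians lay much closer together. All 11 other HIF targets had a mean under 100 CPM and most enzymes a higher one, and of all genes that abundant 62.3% were negative. The part of abundance in the difference was not tested. Over all 36 genes, 26 values were negative and the median was -0.13, and 10 genes had an unadjusted p under 0.05, beside 10.2% of all genes.

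**Figure D4:**
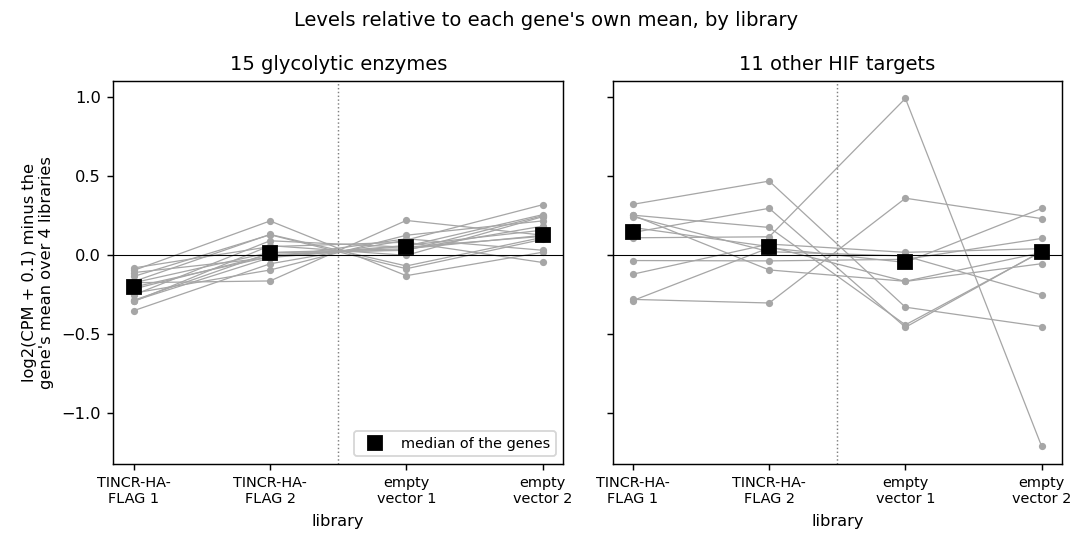
Level of each tested gene in each library relative to its own mean over the 4 libraries (log2 of CPM plus 0.1), for the glycolytic enzymes and the other HIF targets, with TINCR-HA-FLAG left of empty vector. Lines join the libraries of a gene and the marked values are medians. The enzymes run lowest in TINCR-HA-FLAG library 1, with a median of -0.20, and highest in empty vector library 2, with 0.13.

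The enzymes deviated from their own means by a median of -0.20 and 0.01 in TINCR-HA-FLAG libraries, against 0.05 and 0.13 in empty vector libraries. They took 0.698% and 0.86% of scaled counts in TINCR-HA-FLAG cells, against 0.866% and 1.0% in empty vector cells, so TINCR-HA-FLAG library 2 and empty vector library 1 nearly coincided. Mitochondrially encoded genes took 11.4% and 8.66% of counts in TINCR-HA-FLAG cells, against 9.43% and 7.58% in empty vector cells, so that the library with the lowest enzyme share had the highest mitochondrial share. Its part in the enzyme values was not tested.

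Wider lists of the same pathways gave no called gene among the 57 tested of 71 listed. Of these, 27 values were positive and 30 negative with a median of -0.02, and 13 had an unadjusted p under 0.05, 6 higher and 7 lower, beside 10.2% of all genes. Of the HIF regulators, 6 of 7 tested were positive. CITED2, which competes with HIF for the coactivator EP300, had 39.9 and 41.1 CPM in TINCR-HA-FLAG cells, against 27.6 and 27.7 CPM in empty vector cells. Replicates of CITED2 nearly coincided and the groups stood apart, with a log2 fold change of 0.55 ± 0.11 (edgeR adjusted p = 0.0766). ARNT2, a partner of HIF alpha subunits, was at 0.83 ± 0.24 (adjusted p = 0.23). The most abundant of the list, EP300 and HIF1AN, the asparagine hydroxylase that inhibits HIF, were at 0.02 and 0.10.

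Among 23 further HIF targets tested, 11 values were positive and 12 negative. DDIT4, an inhibitor of mTORC1, and the nuclear receptor gene RORA stood at 0.32 and 0.68. The secreted factor STC2, the transferrin receptor TFRC and ANKZF1 stood at -0.43, -0.33 and -0.36, and the transcriptional repressor BHLHE40 at -0.08. Of 13 further glycolytic genes 9 were negative, with the muscle phosphofructokinase PFKM at -0.24, SLC16A1 at -0.21 and the phosphoglucomutase PGM1 at -0.17. Of 14 genes of pyruvate metabolism and gluconeogenesis 8 were negative. The pyruvate dehydrogenase kinases PDK2 and PDK3 stood at 0.50 and 0.32, the opposing phosphatase PDP1 at 0.10, the dehydrogenase subunit DLAT at -0.32 and SLC37A4, the glucose phosphate carrier of the endoplasmic reticulum, at -0.43.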

How the data were processed

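RNA of FaDu cells came from an RNeasy kit and the libraries from a NEBNext Ultra kit, per the labels' protocols. The authors deposited whole-number counts per Ensembl gene, not normalized. The tools STAR 2.7.9a, bcl2fastq 2.20.0.422 and DESeq2 1.32.0 and the build GRCh38 are listed in the submitters' processing notes. How reads were counted, with which annotation and whether by strand, is not given in the sources used here. The 12 other library columns of the table carry no label of these samples and were left out. Symbols were matched by Ensembl identifier for 60463 of 60649 gene rows, and positions and exon lengths came from GENCODE 29.

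Counts were filtered with filterByExpr, which kept 18771 genes, and then scaled by TMM. The test was the quasi-likelihood test of edgeR 4.0.16 (robust, R 4.3.3) with Benjamini-Hochberg adjustment at 0.05. CPM are TMM-scaled, and levels per kilobase use the union of exons. Intervals of counting error are not given for single libraries, and depth sets a limit of 3 counts. Alternatives were DESeq2 1.42.0, other scalings and filters, a replicate block and leaving out each library. The procedure was tested on simulated data. Of genes changed 1.5-fold, 2-fold and 4-fold, edgeR recovered 34.7%, 58% and 77.8%, and it called 0.0778% of unchanged genes. That was 42 unchanged genes called, beside 68, 112 and 147 changed ones. The share of false calls among all simulated calls was therefore above the threshold of 0.05.

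The members and lists were chosen with earlier results of these data known. Given in full are genes called, genes with an unadjusted p under 0.05, and in each role the largest fold change and the highest mean CPM. From the wider lists the genes named are those with an unadjusted p under 0.05 and the 2 with the highest mean CPM of each, except 1 gene that is not reported here.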

Additional observations from a re-analysis of the deposited data

How the results depend on the processing

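The calls rest on 2 libraries a group. Against 83 genes higher and 18 lower in TINCR-HA-FLAG cells, DESeq2 called 131 and 59 (1.01% of genes) and a fit that kept genes of low count 47 and 6 (0.143%). With each library left out the counts were 69 to 226 higher and 45 to 160 lower. Of the 2 genes called here, DESeq2 called 1 (VEGFA, with no adjusted p for FBP1) and the unfiltered fit 1 (FBP1). Leaving out a library gave 1 to 3. With the replicate number as a block, 1318 genes were higher and 1316 lower, 14% of all genes tested, and 15 of the 36 were called. These included 8 of the 15 glycolytic enzymes, all lower (HK2, PFKL, TPI1, GAPDH, PGK1, ENO1, PKM and LDHA), of which none was called without the block. The others were VEGFA, FBP1, EPAS1, ADM, BNIP3L, SLC2A1 and SLC16A3. The labels do not pair the numbers and there are only 2 pairs, whose deviations correlated at 0.37 across genes. The other scalings, the stricter filter, the legacy dispersion and leaving TINCR out kept both calls. With a library left out, the median log2 fold change was -0.33 to -0.078 for glycolytic enzymes, 0.047 to 0.28 for other HIF targets, -0.29 to -0.052 for oxygen sensing, 0.17 to 0.73 for secreted targets, 0.016 to 0.13 for intracellular targets, -0.41 to -0.20 for transporters, -0.26 to 0.052 for flux regulators and 1.36 to 1.67 for gluconeogenic enzymes. The difference between enzymes and other HIF targets was -0.61 to -0.13, and -0.16 with transporters and flux regulators counted among the targets. Signs turned for 10 genes of small fold change: NDRG1 (-0.016 to 0.32), ANKRD37 (-0.93 to 1.49), P4HA2 (-0.16 to 0.047), GPI (-0.15 to 0.12), PFKP (-0.34 to 0.012), ALDOC (-0.048 to 0.28), PGAM1 (-0.20 to 0.11), ENO2 (-0.11 to 0.041), PFKFB4 (-0.011 to 0.41) and PDK1 (-0.33 to 0.052). GPI was also 0.012 with library totals in place of TMM. The cause was not tested. With the longest transcript as length, shares in TINCR-HA-FLAG and empty vector cells were 17.9% and 19.9% for HK2, 35.6% and 36.1% for PFKL, 96.9% and 96.9% for LDHA, and 18.6% and 20.2% for SLC16A3.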
